A study of Mus musculus with 9 samples.

Results

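The expression of 38 genes of glucose uptake, glycolysis and the response to low oxygen was examined in lung endothelial cells (ECs) from mice with and without breast cancer metastases. The genes were taken from a written list, 20 of glucose uptake and glycolysis and 18 of the hypoxia response. The rule itself uses no measured value, but the list was chosen with earlier results of these data known. A gene counted as measured where a probe set of the array names it alone, which held for 35 of the 38 members, 18 glycolytic and 17 hypoxia genes. They were covered by 77 of the 34945 probe sets that name a single gene, and they are 35 of the 18193 genes tested. Gpi1 and Eno1 were not analysed here, because no probe set is listed for them alone, and Bnip3l is covered only by 3 probe sets that also name its copy Bnip3l-ps.

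The ECs came from immunodeficient NSG mice, in which human tumor cells can grow, aged 6 to 8 weeks at the start. The 9 arrays formed 3 groups of 3 biological replicates. Healthy lungs received control IgG. Metastatic lungs carried metastases of the human breast cancer line MDA-MB-231-LM2, a subline that readily colonizes lungs, injected intravenously, and were taken on day 21 after treatment with control IgG or with B20, the anti-VEGFA antibody B20.4.1.1, at 10 mg/kg with 2 doses per week. All 3 groups share the NSG background, which lacks mature lymphocytes, and an antibody treatment, and the metastases stem from 1 human cell line. The cells were sorted as CD31+ cells without CD45, CD11b, CD326, CD140a, CD140b or GFP, the last being the label of the cancer cells. Metastatic mice of comparable load were chosen, and the sort took ECs of the whole lung, inside and outside the nodules alike.

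Cells break glucose down to pyruvate by glycolysis, and ECs are known to draw much of their energy from this route. Glucose enters through GLUT transporters, hexokinase traps it, phosphofructokinase commits it, and lactate dehydrogenase turns the pyruvate into lactate. The response to low oxygen is run by hypoxia-inducible factors (HIFs). While oxygen is plentiful, prolyl hydroxylases mark the HIF alpha subunits for destruction. When it is scarce, the subunits accumulate, pair with ARNT and bind short DNA elements in genes for glucose uptake, glycolysis, mitophagy and matrix. HIF activity is set largely at the protein level, so the mRNA of a subunit does not measure it.

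To show the DNA that these genes have in common, the RefSeq promoters (build GRCm38.p6) were searched in the 250 bases upstream of each start for the core of the hypoxia response element, ACGTG or GCGTG, on both strands. On the other strand these letters read CACGT and CACGC, and a match can overlap the E-box CACGTG. Promoters were found for 32 of the 38 members. Of these, 28 (87.5%) held the core, against 41.5% of all 27025 genes with a promoter and 53.6% of the 14452 of them that are on the array. A gene counted when any of its promoters held the core. Counted by promoter, the shares were 73.9% for members and 48.9% for genes on the array. By list, 16 of 19 glycolytic genes and 12 of 13 hypoxia genes held the core. The members' windows were also richer in G and C, with a median of 63.2% against 57.6% for genes on the array, and its part in the shares was not tested. No promoter was found for Slc2a3, Plod2, Ndrg1, Bnip3l, Epas1 and Bhlhe40. Ndrg1, which rose more than Bnip3, is therefore not shown, and its promoter was not searched. The 4 windows below belong to the 2 glycolytic and 2 hypoxia genes with the largest rise in metastatic lungs whose window holds the core. They run 5′ to 3′ along the gene, and capitals mark the core on either strand.
Slc2a1: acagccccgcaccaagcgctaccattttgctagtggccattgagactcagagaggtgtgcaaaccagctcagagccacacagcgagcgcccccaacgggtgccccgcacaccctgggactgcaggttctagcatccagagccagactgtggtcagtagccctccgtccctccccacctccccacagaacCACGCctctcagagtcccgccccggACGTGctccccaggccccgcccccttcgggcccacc
Pfkl: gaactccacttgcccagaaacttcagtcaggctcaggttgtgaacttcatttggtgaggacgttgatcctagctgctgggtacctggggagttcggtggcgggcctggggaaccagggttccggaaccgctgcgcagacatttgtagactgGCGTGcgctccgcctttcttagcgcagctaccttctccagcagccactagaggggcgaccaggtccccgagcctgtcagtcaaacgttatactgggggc
Ankrd37: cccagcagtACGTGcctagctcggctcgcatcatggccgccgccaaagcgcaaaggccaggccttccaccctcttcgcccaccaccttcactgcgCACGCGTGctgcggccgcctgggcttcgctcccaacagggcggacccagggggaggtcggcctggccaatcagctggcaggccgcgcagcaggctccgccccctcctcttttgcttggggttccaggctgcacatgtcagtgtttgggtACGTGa
Bnip3: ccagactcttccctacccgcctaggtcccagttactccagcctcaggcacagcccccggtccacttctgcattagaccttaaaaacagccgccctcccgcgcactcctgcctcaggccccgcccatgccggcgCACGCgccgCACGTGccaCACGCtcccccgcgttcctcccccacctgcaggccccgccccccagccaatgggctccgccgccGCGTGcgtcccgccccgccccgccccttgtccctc
The Slc2a1 window lies at chr4:119108495-119108744 on the plus strand and holds 2 cores, the nearer 36 bases from the start. That of Pfkl, at chr10:78009808-78010057 on the minus strand, holds 1. The Ankrd37 window, at chr8:45999851-46000100 on the minus strand, holds 4 cores in 3 stretches, the nearest 6 bases from the start. The Bnip3 window, at chr7:138909507-138909756 on the minus strand, holds 5 cores in 4 stretches, among them the E-box. A match is a sequence only and does not show that a factor binds there. It was present in 11 of 12 members called higher in metastatic lungs (91.7%) and in 16 of 18 of the other measured members (88.9%). Tpi1, which was higher, has no match in its window, and Hilpda, which was lower, has 3 in one of its windows.

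Metastatic lungs under control IgG were first compared with healthy lungs, to see which members change in ECs with metastasis. All values are RMA log2 intensities, on which 1 unit is a doubling, and every gene is represented by its probe set with the highest mean. A gene was called when limma gave an adjusted p under 0.05 over all 18193 genes. Of the 18 glycolytic genes, 8 were called higher and 0 lower, with a median difference of 0.25. Of the 17 hypoxia genes, 6 were called higher and 1 lower, with a median of 0.30. Over all genes, 5.55% were called higher and 3.46% lower, and the median was 0.00. Among the 35 members, the 3 metastatic arrays lay wholly above the 3 healthy arrays for 19 and wholly below for 5, against 15.4% and 13.6% of all genes. In bulk ECs, fewer cells of a type and less RNA per cell cannot be told apart.

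Among the glycolytic genes, the largest rise was that of a glucose transporter. Slc2a1, the glucose transporter GLUT1, read 9.50, 9.84 and 9.67 in the healthy arrays, 10.75, 10.56 and 10.59 in the metastatic IgG arrays and 10.07, 10.66 and 10.49 in the metastatic B20 arrays. All 6 metastatic arrays were above all healthy ones. The difference between metastatic IgG and healthy ECs was 0.96 ± 0.11 (SE), or 1.95-fold (adjusted p = 0.00137). All 3 probe sets of Slc2a1 were called higher when probe sets were tested singly, by 0.73 to 1.22. Slc2a3, the transporter GLUT3, did not share this pattern under IgG, as its levels were 7.32, 8.31 and 7.71 in healthy and 7.65, 7.70 and 8.00 in metastatic IgG arrays, a difference of 0.00 ± 0.22 (adjusted p = 0.997). Its mean lay below the 40th percentile of all genes (8.23), as did that of Hk2, Aldoc, Eno2, Egln3 and Car9, which are called dim here.

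The steps that trap and commit glucose were uneven. Hexokinases Hk1 and Hk2 differed by 0.18 and 0.27 and were not called. Pfkl, the liver-type phosphofructokinase, read 10.66, 10.65 and 10.66 in healthy arrays, 11.63, 11.34 and 11.40 in metastatic IgG arrays and 11.11, 11.60 and 11.13 in B20 arrays. The healthy arrays were nearly identical and all below the metastatic ones, and Pfkl rose by 0.80 ± 0.09, or 1.74-fold (adjusted p = 0.00177). This holds for 2 of its 3 probe sets, while the remaining one differed by -0.01. By contrast Pfkp, the platelet-type enzyme, was at 10.57, 10.57 and 10.64 in healthy and 10.66, 10.61 and 10.50 in metastatic IgG arrays, a difference of -0.01 ± 0.08. Pfkfb3 and Pfkfb4, which make the activator of phosphofructokinase, differed by 0.13 and 0.00 and were not called.

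Of the 7 enzymes between phosphofructokinase and pyruvate, 4 were called higher. Tpi1, triosephosphate isomerase, stood at 10.24, 10.18 and 10.14 in healthy ECs, at 10.91, 11.06 and 10.74 in metastatic IgG ECs and at 10.49, 10.83 and 10.66 under B20. Its rise of 0.72 ± 0.10 (adjusted p = 0.00332) was seen in all 3 probe sets. Pkm, pyruvate kinase, gave 11.77, 11.73 and 11.80 in healthy ECs, 12.46, 12.53 and 12.30 in metastatic IgG ECs and 12.12, 12.37 and 12.13 under B20, a rise of 0.67 ± 0.09 (adjusted p = 0.00267). For both enzymes no metastatic array reached down to a healthy one. The brain-type aldolase Aldoc, a dim gene, gave 7.45, 7.31 and 7.29 in healthy ECs, 8.07, 7.81 and 7.91 in metastatic IgG ECs and 8.23, 8.48 and 8.32 under B20, in that order without overlap. It was higher by 0.58 ± 0.10 in metastatic IgG ECs (adjusted p = 0.00848), whereas its other probe set differed by 0.13, and the call was lost with that probe set or with the mean of both. The ubiquitous aldolase Aldoa differed by 0.21 (adjusted p = 0.130). Pgk1, phosphoglycerate kinase, was higher by 0.44 ± 0.11 (adjusted p = 0.0436), a call that was lost when any single array except healthy replicate 2 was left out (adjusted p up to 0.140). The call was also lost with arrays centred on their median (adjusted p = 0.0587) and with probe sets tested singly (adjusted p = 0.0518). Pgam1, phosphoglycerate mutase, differed by 0.23 (adjusted p = 0.165). Eno2, the neuronal enolase and a dim gene, differed by -0.68 ± 0.20 (adjusted p = 0.0812), the only glycolytic member with no overlap and lower values in metastatic ECs.

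Genes that direct pyruvate were called in 2 of 3 cases. Ldha, the lactate dehydrogenase subunit that favours lactate, was at 11.89, 11.97 and 11.88 in healthy ECs, 12.53, 12.38 and 12.39 in metastatic IgG ECs and 12.23, 12.52 and 12.36 under B20. All 6 metastatic arrays lay above the 3 healthy ones, and Ldha was higher under IgG by 0.52 ± 0.08, or 1.43-fold (adjusted p = 0.00626). Pdk1, a kinase that inhibits pyruvate dehydrogenase, was higher by 0.47 ± 0.11 (adjusted p = 0.0382). That call depended on the probe set, since the other 3 differed by -0.02, 0.44 and -0.05. It was lost without any single array except metastatic IgG replicate 3. The call was also lost with the mean of its probe sets (adjusted p = 0.25), a replicate block (adjusted p = 0.0803) and a second quantile normalization (adjusted p = 0.0522). Slc16a3, the lactate exporter MCT4, differed by 0.00 ± 0.15.

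**Figure D1:**
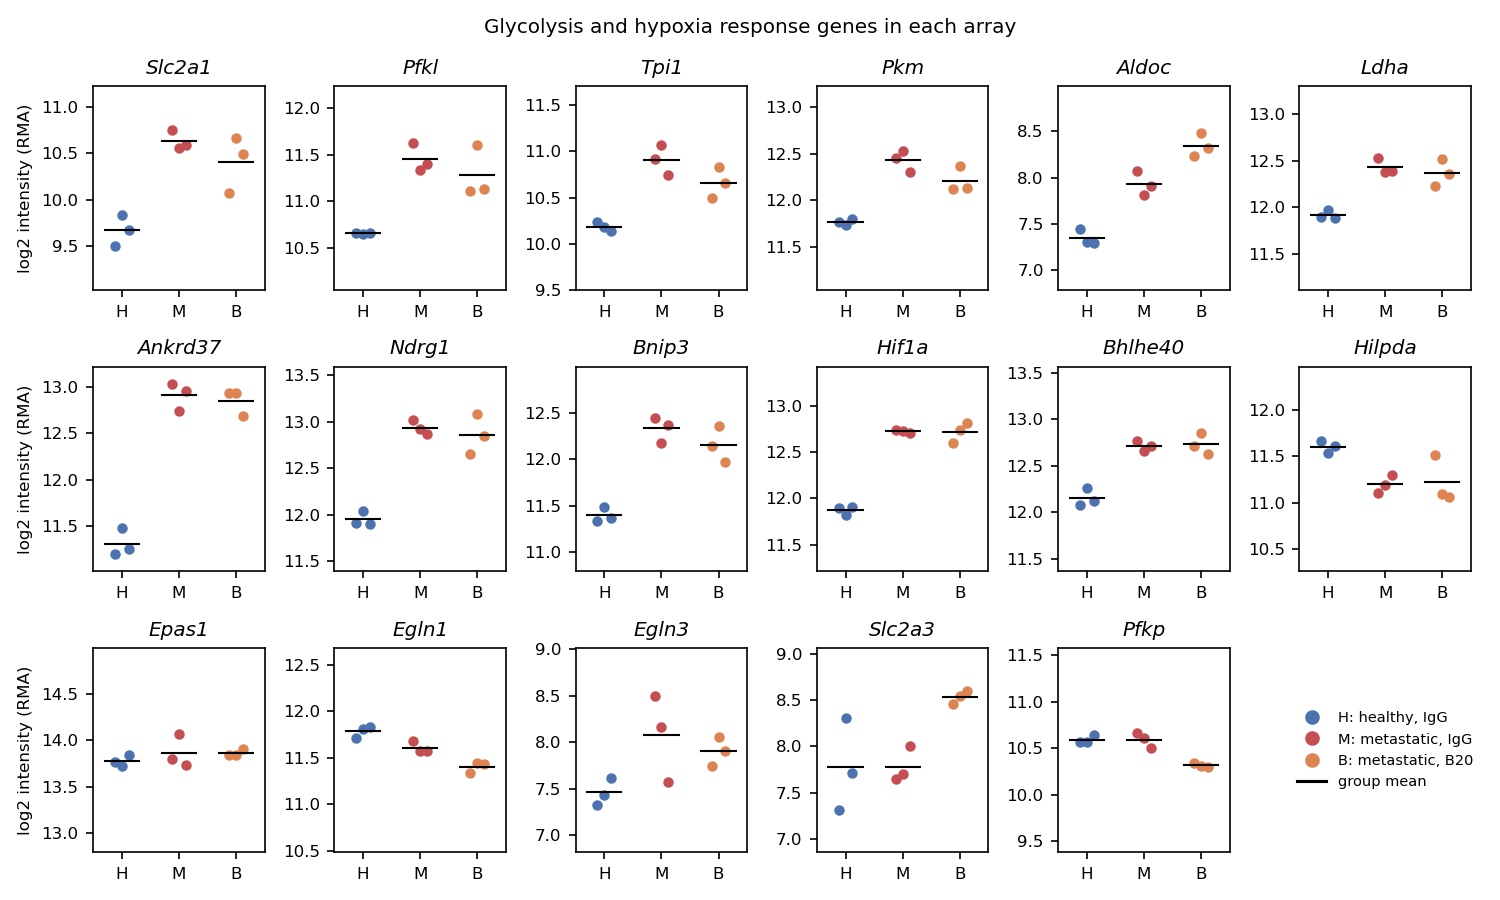
RMA log2 intensity of 17 members in each of the 9 arrays, with healthy IgG (H), metastatic IgG (M) and metastatic B20 (B) side by side. Points are arrays, bars are group means of 3 arrays, and every panel spans the same range of log2 units. In Slc2a1, Pfkl, Ankrd37, Ndrg1, Bnip3 and Hif1a all 6 metastatic arrays lie above the 3 healthy ones, while in Slc2a3 the B20 arrays lie above and in Pfkp below both other groups.

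Among the HIF subunits, Hif1a was higher in metastatic ECs and Epas1 was not called. Hif1a, which encodes HIF-1α, read 11.90, 11.82 and 11.91 in healthy arrays, 12.74, 12.73 and 12.70 in metastatic IgG arrays and 12.60, 12.74 and 12.81 in B20 arrays. The arrays within each group lay close together, and the rise of 0.85 ± 0.07, or 1.80-fold (adjusted p = 0.000467), was found in all 4 probe sets (0.83 to 1.10). Epas1, which encodes HIF-2α and is known for its expression in lung endothelium, read 13.77, 13.72 and 13.84 in healthy arrays, 13.80, 14.07 and 13.74 in metastatic IgG arrays and 13.84, 13.84 and 13.91 in B20 arrays. Its groups overlapped, and the difference was 0.10 ± 0.10 (adjusted p = 0.644). The difference between the responses of the 2 subunits was not tested.

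The HIF prolyl hydroxylases were not called in metastatic IgG ECs. Egln1 (PHD2), the main oxygen sensor, was at 11.71, 11.81 and 11.83 in healthy arrays, 11.68, 11.57 and 11.57 in metastatic IgG arrays and 11.33, 11.44 and 11.43 in B20 arrays, a difference of -0.18 ± 0.08 under IgG (adjusted p = 0.215). Egln3 (PHD3), itself a known HIF target and dim here, was at 7.33, 7.43 and 7.62 in healthy arrays, 8.50, 8.16 and 7.57 in metastatic IgG arrays and 7.75, 8.06 and 7.91 in B20 arrays. Replicate 3 of metastatic IgG lay within the healthy range, and the difference of 0.61 ± 0.21 was not called (adjusted p = 0.120). Without that array it was 0.87 and was called (adjusted p = 0.0111).

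The largest rise of any member was that of Ankrd37, an ankyrin repeat gene known as a HIF target. It stood at 11.20, 11.48 and 11.26 in healthy ECs, 13.03, 12.74 and 12.96 in metastatic IgG ECs and 12.93, 12.93 and 12.69 under B20, so that more than 1 log2 unit parted every metastatic array from every healthy one. The difference under IgG was 1.60 ± 0.11, or 3.02-fold (adjusted p = 0.000168). Ndrg1, a stress-induced gene linked to growth restraint, gave 11.91, 12.04 and 11.90, then 13.02, 12.92 and 12.87, and 12.65, 13.08 and 12.85 under B20. It was higher by 0.99 ± 0.08, or 1.98-fold (adjusted p = 0.000375), and all 5 of its probe sets were called, by 0.86 to 1.29. Bhlhe40, a transcriptional repressor, read 12.08, 12.26 and 12.12 in healthy arrays, 12.77, 12.66 and 12.71 in metastatic IgG arrays and 12.72, 12.85 and 12.63 in B20 arrays. All 6 metastatic arrays lay above the 3 healthy ones, and it was higher under IgG by 0.56 ± 0.08 (adjusted p = 0.00492). Ddit4 (REDD1), an inhibitor of mTORC1, differed by 0.54 ± 0.15 without overlap and missed the threshold (adjusted p = 0.0630). It was called in 4 of 16 alternatives, with the lowest adjusted p (0.0212) when metastatic IgG replicate 3 was left out. Kdm3a, a histone demethylase, differed by -0.27 (adjusted p = 0.0598).

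Of the mitochondrial members, Bnip3 was called and Higd1a was not. Bnip3, a receptor for the removal of mitochondria by mitophagy, rose from 11.34, 11.49 and 11.37 in healthy ECs to 12.45, 12.18 and 12.37 in metastatic IgG ECs and read 12.14, 12.36 and 11.97 under B20, a difference under IgG of 0.93 ± 0.09, or 1.91-fold (adjusted p = 0.000900). The levels of the 3 probe sets shared by its relative Bnip3l and the copy Bnip3l-ps had means of 12.10, 11.68 and 10.52 in healthy ECs and 12.06, 11.42 and 10.26 in metastatic IgG ECs. Higd1a, a survival factor of the respiratory chain, differed by -0.12 (adjusted p = 0.409), and 1 of its 3 probe sets was called lower by -0.43.

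Of the 6 genes for collagen modification, pH and lipids, 1 was called higher and 1 lower. P4ha1, a collagen prolyl hydroxylase, was higher by 0.40 ± 0.09 (adjusted p = 0.0265). Its call was lost without any single array except metastatic IgG replicate 3 (adjusted p up to 0.0894). It was also lost with all 9 arrays in 1 fit (adjusted p = 0.12) and with a replicate block (adjusted p = 0.0695). P4ha2 and Plod2, which hydroxylate collagen prolines and lysines, differed by 0.29 and 0.28 and were not called. Car9, the carbonic anhydrase often used as a marker of hypoxia, was dim and differed by -0.11, and Vldlr, a lipoprotein receptor, by 0.30 (adjusted p = 0.323). Hilpda, a lipid droplet protein known as a HIF target, went the other way, with 11.66, 11.53 and 11.61 in healthy ECs, 11.10, 11.19 and 11.30 in metastatic IgG ECs and 11.51, 11.09 and 11.06 under B20. Hilpda was lower by -0.40 ± 0.09 without overlap (adjusted p = 0.0249). The call was lost without any single array except metastatic IgG replicate 3 (adjusted p up to 0.0856). It was also lost with all 9 arrays in 1 fit (adjusted p = 0.0653) and with a replicate block (adjusted p = 0.0598).

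**Figure D2:**
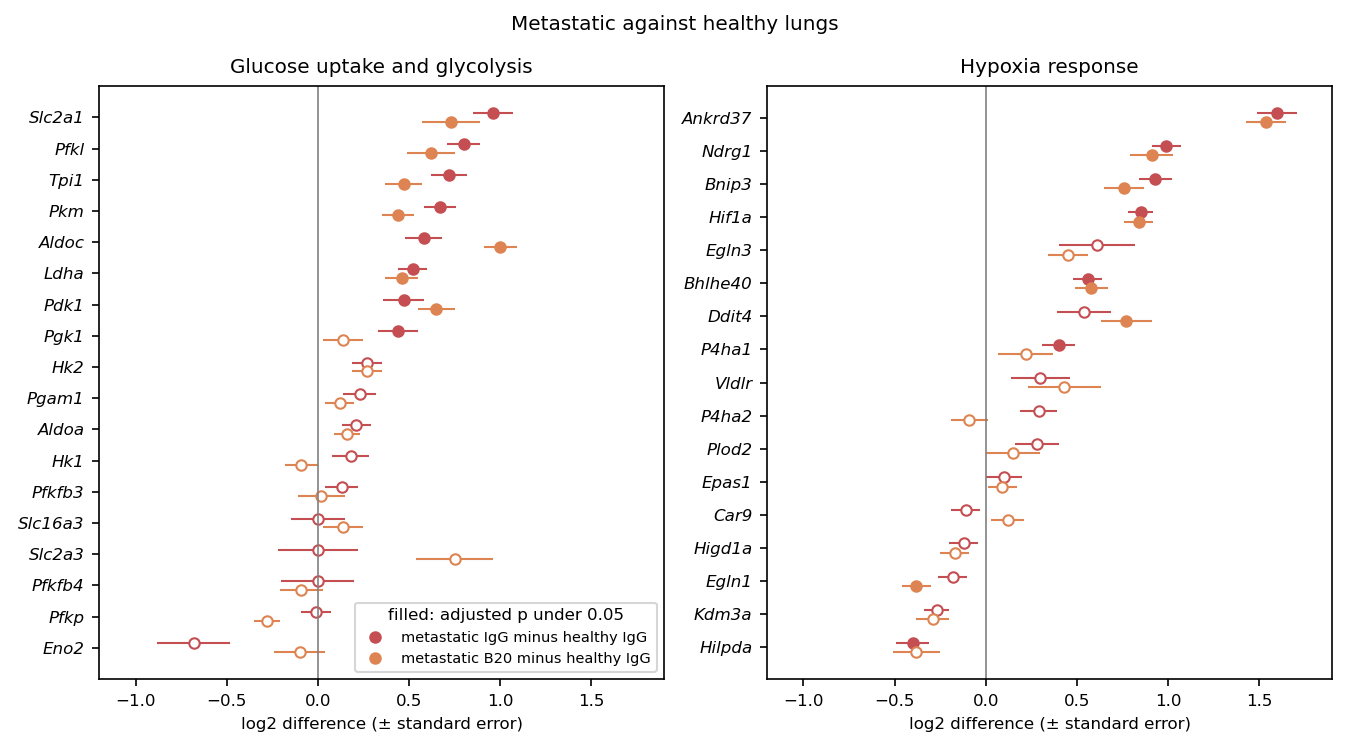
Log2 difference from healthy IgG ECs for the 18 glycolytic and 17 hypoxia genes measured, for metastatic IgG (red) and metastatic B20 (orange), with bars for the standard error and filled points for an adjusted p under 0.05. The same 3 healthy arrays serve both colours. Under IgG the differences run from -0.68 (Eno2) to 1.60 (Ankrd37), and filled points on the lower side are Hilpda under IgG and Egln1 under B20.

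The count of glycolytic genes depended on the probe sets used. With probe sets whose suffix marks possible cross-hybridization left out, 12 glycolytic genes remained measured and 4 were called, against 8 of 18. With the thresholds that the study set for secreted proteins raised in ECs at week 3 (log2 difference over 0.75, p under 0.05 and adjusted p under 0.25), called the fold threshold here and applied in either direction, 2 glycolytic and 4 hypoxia genes passed as higher, against 2.20% of all genes. They were Slc2a1, Pfkl, Ankrd37, Ndrg1, Hif1a and Bnip3. Tested as single probe sets, 25 of the members' 77 probe sets were called higher and 2 lower, against 4.43% and 2.98% of all 34945, and the probe sets of several genes disagreed. Pfkl, Pdk1, Aldoc and P4ha1 each had probe sets that were not called, and Pgk1 had 0 of its 3 called. By contrast Slc2a1, Tpi1, Hif1a and Ndrg1 had every probe set called higher.

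**Figure D3:**
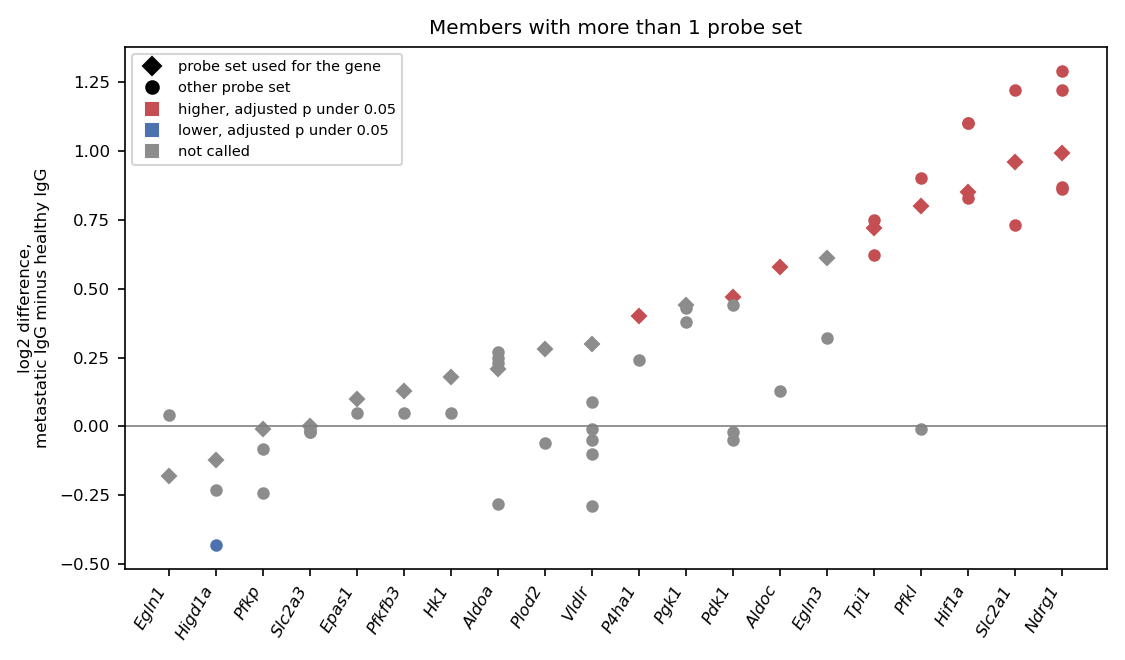
Log2 difference between metastatic IgG and healthy IgG ECs for each probe set of the 20 members with more than 1 probe set, ordered by the probe set used for the gene (diamonds). Red and blue mark an adjusted p under 0.05 over single probe sets. All probe sets of Slc2a1, Tpi1, Hif1a and Ndrg1 are red, and Pfkl and Pdk1 have probe sets at or near 0.

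Other genes of both pathways were counted in the same way. Of 20 further genes of glucose metabolism, among them Pfkm, Ldhb, Slc16a1 and Pdk2 to Pdk4, 0 were called in metastatic IgG ECs. At an unadjusted p under 0.05, 1 was higher and 3 lower, against 12.5% and 10.8% of all genes. The median of the 20 genes was -0.01. Of them, 6 were dim, against 4 of the 18 glycolytic members. Their mean level in healthy arrays was 9.05 to 9.09, against 9.89 to 10.05 for those members. Of 29 further genes tied to hypoxia, 1 was called higher and 0 lower, against 5.55% and 3.46% of all genes. At an unadjusted p under 0.05 there were 6 higher and 3 lower, and the median of the 29 genes was 0.02. The called gene was Adm, which encodes the vasodilator adrenomedullin. It stood at 9.37, 9.72 and 9.57 in healthy ECs, 11.32, 11.07 and 10.75 in metastatic IgG ECs and 10.28, 11.25 and 10.62 under B20, higher by 1.49 ± 0.15 under IgG (adjusted p = 0.000941). Vegfa, the best known HIF target and the antigen of B20, differed by -0.07 ± 0.08. The test of a difference between the members and these lists was not made, and the members were not drawn at random.

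Other features of the arrays moved with the same contrast, and their part in the members' values was not tested. The 15 endothelial markers were nearly level, with a mean of 12.76 to 12.80 in healthy, 12.77 to 12.83 in metastatic IgG and 12.79 to 12.82 in metastatic B20 arrays, and 1 of 15 was called higher. All 14 markers of dividing cells were called higher, with a median difference of 1.87 and a mean level of 7.71 to 8.25 in healthy, 9.59 to 10.20 in metastatic IgG and 9.03 to 9.49 in B20 arrays. Of 14 macrophage markers, 10 were called higher, and the median difference of all 14 was 0.76. The mean level of the 14 was 8.15 to 8.53 in healthy, 9.26 to 9.46 in metastatic IgG and 9.22 to 9.65 in B20 arrays. The largest rises were 6.25-fold for C1qa (adjusted p = 5.05e-05), 4.0-fold for Ms4a7 (adjusted p = 4.62e-05) and 3.34-fold for C1qb (adjusted p = 0.00137), and Ctss, Lyz2, C1qc, Mrc1, Tyrobp, Cd68 and Csf1r were called as well. Adgre1, Itgam, Ms4a7, C1qc and Tyrobp lay below the 40th percentile of all genes by their mean, the last 3 of them called. Ptprc, which encodes the CD45 used to remove leukocytes, differed by 0.52 and Fcgr1 by -0.05, and neither was called. Macrophages, too, are known to express glycolytic and HIF target genes. Among the other cell types, 1 of 6 neutrophil, 3 of 9 fibroblast, 2 of 9 pericyte, 2 of 10 epithelial and 1 of 5 erythroid markers were called higher, and 1 fibroblast and 1 erythroid marker lower. The signal of Actb near its 3′ end minus that near its 5′ end, a measure of RNA integrity, was 0.609 to 0.620 in healthy, 0.488 to 0.555 in metastatic IgG and 0.526 to 0.620 in B20 arrays.

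**Figure D4:**
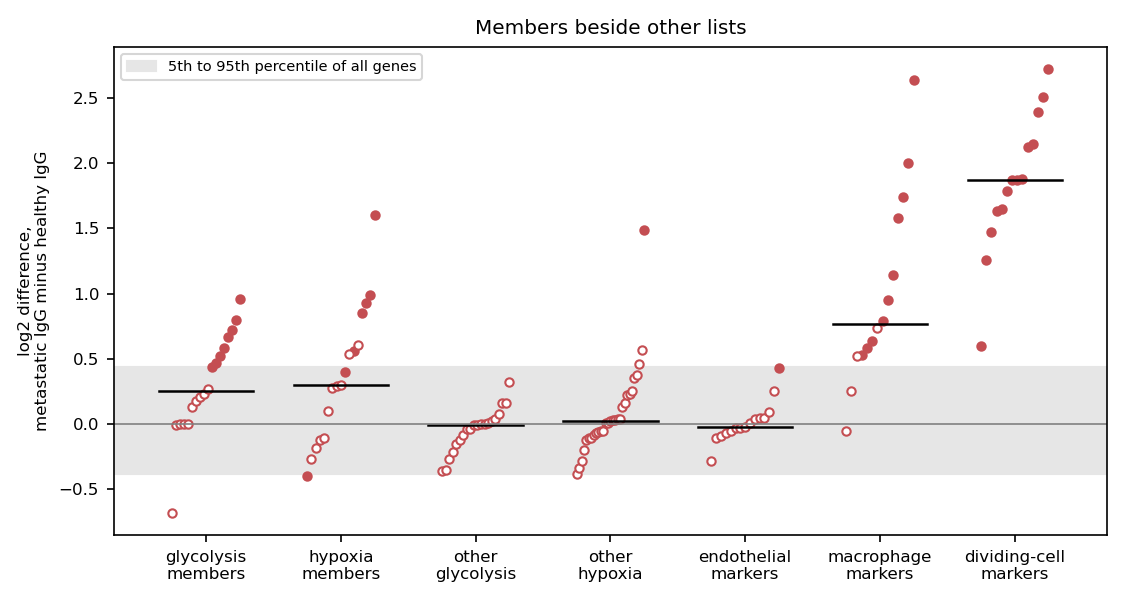
Log2 difference between metastatic IgG and healthy IgG ECs for single genes of the 2 member lists, 2 lists of other pathway genes and 3 marker lists, with filled points for an adjusted p under 0.05 and black bars for medians. Grey spans the 5th to 95th percentile of all 18193 genes, from -0.38 to 0.44. The member medians are 0.25 and 0.30, those of other pathway genes -0.01 and 0.02, and those of macrophage and dividing-cell markers 0.76 and 1.87.

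B20 was compared with control IgG within metastatic lungs to see whether the members respond to the blockade of VEGFA. With limma, 0 of 35 members passed the threshold, as did 0.0% of all 18193 genes. At an unadjusted p under 0.05, 4 members were higher and 5 lower, against 3.83% and 4.20% of all genes, and the groups parted without overlap for the same numbers, 4 and 5, against 6.20% and 6.91%. At an unadjusted p under 0.05 with an absolute log2 difference over 0.5, a pair of thresholds that the study used for B20 and that was added after the data were seen, 2 glycolytic genes (Slc2a3 and Eno2) and 0 hypoxia genes passed, both higher, against 0.412% of all genes. The median difference was -0.10 for the glycolytic and -0.05 for the hypoxia genes. A difference lay below 0 for 12 of 18 and 12 of 17 of them.

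The 14 members that were called higher in metastatic IgG ECs differed by -0.31 to 0.42 under B20, 11 of them below 0 and 3 above. Hif1a differed by -0.01 with a 95% interval of -0.21 to 0.19, Ankrd37 by -0.06 (-0.31 to 0.20), Ndrg1 by -0.08 (-0.34 to 0.19) and Bhlhe40 by 0.02 (-0.19 to 0.23). Larger shifts were not excluded by the intervals of Slc2a1, at -0.23 (-0.56 to 0.11), Tpi1, at -0.25 (-0.52 to 0.03), Pkm, at -0.22 (-0.46 to 0.02), and Bnip3, at -0.18 (-0.45 to 0.10). The same held for P4ha1, at -0.17 (-0.53 to 0.18), and Pfkl, at -0.17 (-0.50 to 0.16). Of the 14 intervals, 12 held 0. The exceptions were Pgk1, at -0.31 (-0.53 to -0.09, adjusted p = 0.466), and Aldoc, at 0.42 (0.18 to 0.66, adjusted p = 0.417). As the metastatic IgG arrays serve in both comparisons, their chance highs and lows enter these values with opposite sign.

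The smallest p-values belonged to Slc2a3, Aldoc and Pfkp, none of which passed the correction. Slc2a3 read 7.65, 7.70 and 8.00 in metastatic IgG arrays and 8.46, 8.54 and 8.60 in B20 arrays, without overlap, a difference of 0.75 ± 0.11 (1.68-fold, 3 of 3 B20 arrays higher, adjusted p = 0.298). One healthy array, at 8.31, came near the B20 values, and the other 3 probe sets of Slc2a3 differed by 0.26, 0.41 and 0.07. Aldoc was likewise above the metastatic IgG arrays in 3 of 3 B20 arrays. Pfkp read 10.34, 10.31 and 10.30 under B20, below every metastatic IgG and healthy array, a difference of -0.27 ± 0.08 from metastatic IgG (adjusted p = 0.459). Its other 2 probe sets differed by -0.07 and 0.05, so that 1 of the 3 has the opposite sign. Eno2 differed by 0.59 and Car9 by 0.23, both without overlap, and on the lower side were P4ha2 at -0.37, Hk1 at -0.27 and Egln1 at -0.20. Slc2a3, Aldoc, Eno2 and Car9, the 4 members that lay higher, are all dim genes. The 14 dividing-cell markers had a median of -0.57 in the same comparison, all 14 of them lower at an unadjusted p under 0.05 and 0 called, and the macrophage markers one of 0.02.

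**Figure D5:**
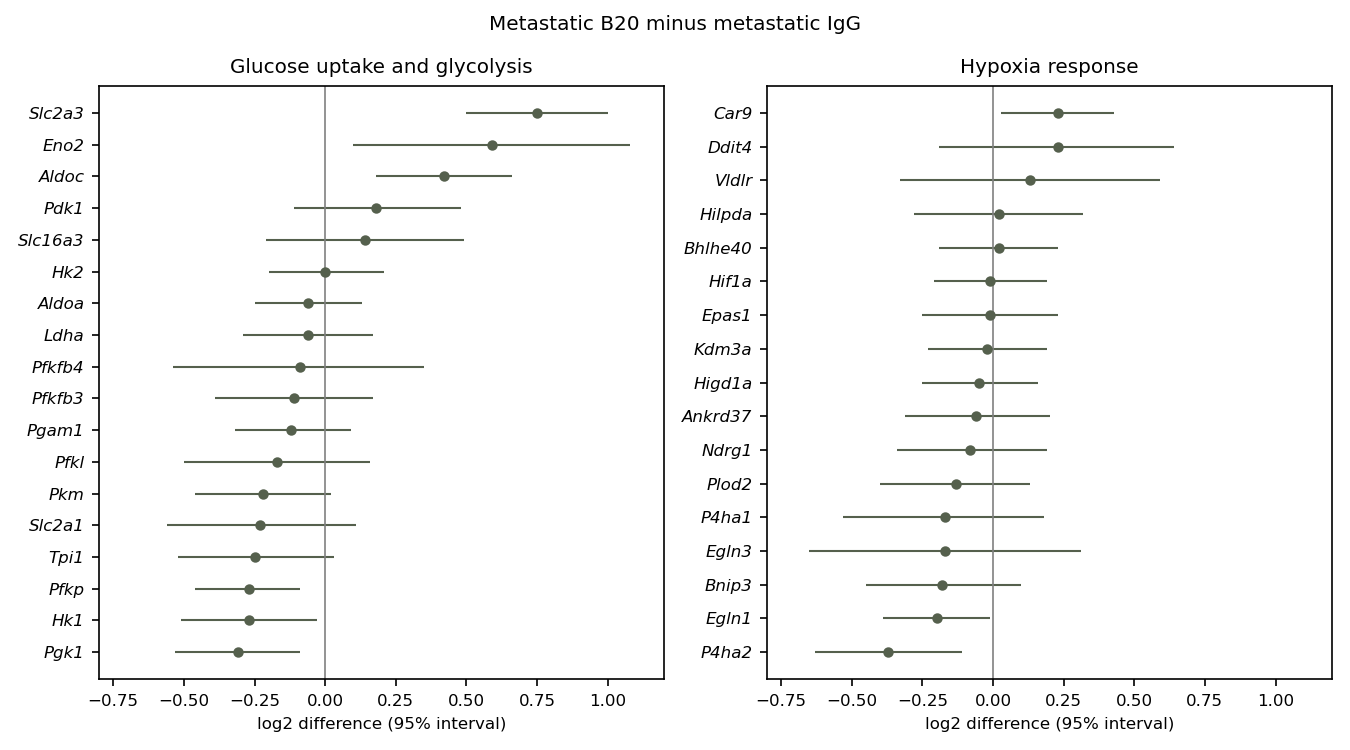
Log2 difference between metastatic B20 and metastatic IgG ECs for the 35 measured members, with 95% confidence intervals from limma on 3 against 3 arrays. No point passed the adjusted threshold, and the intervals of Hif1a, Ankrd37 and Ndrg1 span 0 while that of Slc2a3 runs from 0.50 to 1.00.

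The comparison of B20-treated metastatic lungs with healthy lungs asked which members still differ when VEGFA is blocked. It uses the same healthy arrays as the IgG comparison, so the calls of both are not independent. Of the glycolytic genes, 7 of 18 were called higher and 0 lower, with a median of 0.21, and of the hypoxia genes 6 of 17 were called higher and 1 lower, with a median of 0.22. Over all genes 4.15% were called higher and 2.29% lower. The B20 arrays lay wholly above the healthy arrays for 17 of 35 members and wholly below for 5, against 13.8% and 13.1% of all genes. Of the members' 77 single probe sets, 23 were called higher and 2 lower, against 3.32% and 2.09% of all probe sets.

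For the hypoxia genes the differences from healthy ECs under IgG and under B20 are given side by side. Ankrd37 was higher by 1.60 under IgG and 1.54 ± 0.11 under B20 (adjusted p = 0.000194), Ndrg1 by 0.99 and 0.91 ± 0.12 (adjusted p = 0.00338), and Bnip3 by 0.93 and 0.76 ± 0.11 (adjusted p = 0.00637). Hif1a was higher by 0.85 and 0.84 ± 0.08 (adjusted p = 0.00123), and Bhlhe40 by 0.56 and 0.58 ± 0.09 (adjusted p = 0.00827). These 5 calls held under the 16 alternatives that keep the adjusted p threshold, and Bhlhe40 lies below the fold threshold of 0.75. Ddit4 was called under B20, at 0.77 ± 0.14 (adjusted p = 0.0181), though not without healthy replicate 1 or 3 or B20 replicate 3 (adjusted p up to 0.0671). Egln1 was lower under B20 by -0.38 ± 0.08 (adjusted p = 0.0250), with each B20 array below each healthy one. The call for Egln1 was lost without any single array except healthy replicate 1 (adjusted p up to 0.0975), and its second probe set differed by 0.08. That call was also lost with a replicate block (adjusted p = 0.0548) and with the mean of its probe sets (adjusted p = 0.279). Hilpda differed by -0.38 ± 0.13 (adjusted p = 0.132) and was called without B20 replicate 1, the array at 11.51 (-0.52, adjusted p = 0.0169). Adm, from the wider list, was higher by 1.17 ± 0.22 (adjusted p = 0.0187). Pgf, a ligand of VEGF receptor 1, was higher by 0.75 ± 0.17 (adjusted p = 0.0422), and the phosphoglucomutase Pgm2 by 0.36 ± 0.08 (adjusted p = 0.0419). With Adm these were 3 called of 29, against 4.15% of all genes called higher. Under IgG, Pgf differed from healthy ECs by 0.46 ± 0.13 (adjusted p = 0.0698) and Pgm2 by 0.22 ± 0.09 (adjusted p = 0.163), and neither was called.

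The glycolytic genes called under B20 were Aldoc at 1.00 ± 0.09 (1.99-fold, adjusted p = 0.000895), Slc2a1 at 0.73 ± 0.16 (1.66-fold, adjusted p = 0.0306), Pdk1 at 0.65 ± 0.10 (adjusted p = 0.00877), Pfkl at 0.62 ± 0.13 (adjusted p = 0.0281), Tpi1 at 0.47 ± 0.10 (adjusted p = 0.0298), Ldha at 0.46 ± 0.09 (adjusted p = 0.0259) and Pkm at 0.44 ± 0.09 (adjusted p = 0.0262). Most of these adjusted p-values lie near the threshold, and the count of 7 fell to 2 without healthy replicate 1 or healthy replicate 3. It was 3 without healthy replicate 2, B20 replicate 2 or B20 replicate 3, and 7 without B20 replicate 1. With suffixed probe sets left out it was 3 of 12. With the fold threshold 2 glycolytic genes passed as higher, Aldoc and Slc2a3, against 1.85% of all genes. Both are dim, and Slc2a3 is not among the 7 called. The call for Aldoc was lost with its other probe set, which differed by 0.42 (adjusted p = 0.302), and that for Pdk1 with the mean of its probe sets, which differed by 0.23 (adjusted p = 0.278). Pgk1, which was called under IgG, differed by 0.14 ± 0.11 (adjusted p = 0.565). Slc2a3 differed from healthy ECs by 0.75 ± 0.21 (adjusted p = 0.0794), and by 1.02 (adjusted p = 0.00905) without healthy replicate 2, the array at 8.31. Pfkp differed by -0.28 ± 0.07 (adjusted p = 0.0608).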

How the data were processed

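Labelled RNA of sorted lung ECs, 1 ng per reaction by the labels' 3′ kit, was measured on an Affymetrix mouse genome array. The authors applied RMA with Chipster 3.8.0 and deposited log2 values for 45101 probe sets in 9 arrays, which were used as they are. RMA equalizes the arrays' distributions, so a change shared by most genes would not be seen. Probe sets naming several genes, none, or controls were left out. Each of the 18193 genes took the values of its brightest probe set by the mean of the 9 arrays.

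Pairs of groups were compared over the 6 arrays concerned by lmFit and eBayes of limma 3.58.1 (R 4.3.3), without a block or a filter on dim genes, and tested two-sided with Benjamini-Hochberg adjustment over all genes. SE is the standard error of the log2 difference. The fit was tested on simulated data with known changes. Of log2 changes of 0.5, it recovered 43.3% in metastatic IgG against healthy, 35.8% in B20 against metastatic IgG and 41.8% in B20 against healthy. Of log2 changes of 1, it recovered 85.1%, 85.1% and 88.1% in the same order. The labels call the arrays biological replicates, and the number of arrays limits the precision.

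The members, marker lists and tests were chosen with earlier results of these data known. Values per array are given for the 6 called, non-overlapping members with the largest difference in each list, for Hif1a, Epas1, Egln1 and Egln3, for the 3 members of smallest p under B20 and for called members that were lower. Other lists have up to 3 called genes named, except that all called macrophage markers are named. Further pathway genes were named after their values were seen. Promoters came from RefSeq (GRCm38.p6). Alternatives were a fit of all 9 arrays, a replicate block, a filter at the 40th percentile, other choices of probe set, array weights, median centring, repeated quantile normalization, eBayes with trend and robust options, the fold threshold that the study set for an EC signature at week 3, and leaving out each array. Unadjusted p with a fold threshold, which the study used for B20, was added after seeing the data.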

Additional observations from a re-analysis of the deposited data

How the results depend on the processing

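The limits are 3 arrays per group, dim probe sets (6 of 35 members lay below the 40th percentile) and probe sets of 1 gene that disagree. In metastatic IgG against healthy ECs, the count of called glycolytic genes was 8, and it was 4 with probe sets without a shared suffix (12 genes measured) and 2 with the fold threshold of 0.75, which also gave 4 of the 7 hypoxia genes. Leaving out 1 array gave 6 to 7 glycolytic and 5 to 9 hypoxia genes. In B20 against healthy ECs, the glycolytic count of 7 was 3 without suffixed probe sets. With the fold threshold it was 2, among them Slc2a3, which is not among the 7. Leaving out 1 array gave 2 to 7 glycolytic and 5 to 9 hypoxia genes. In B20 against metastatic IgG every alternative gave 0 except that an unadjusted p under 0.05 with an absolute log2 difference over 0.5, chosen after seeing the data, gave 2 glycolytic and 0 hypoxia genes. With all 9 arrays in 1 fit, 8 glycolytic and 5 hypoxia genes were called in metastatic IgG against healthy ECs. With the replicate number as a replicate block, 7 glycolytic and 5 hypoxia genes were called in that comparison. Under B20 against healthy ECs, 5 glycolytic genes were called with this block. Deviations from the group mean correlated by -0.0757 to 0.0138 between arrays of the same number. Between arrays of different number they correlated by -0.145 to 0.177. With 3 arrays per group these values cannot decide whether the numbers pair the arrays. Calls for Slc2a1, Tpi1, Pkm, Ldha, Ankrd37, Ndrg1, Bnip3, Hif1a and Bhlhe40 in metastatic IgG ECs held under every alternative that keeps the adjusted p threshold, except that Tpi1 and Ldha have no probe set without a suffix, and Tpi1, Pkm, Ldha and Bhlhe40 do not reach the fold threshold. Signs turned for Pfkl without suffixed probe sets, at -0.01 against healthy ECs and 0.40 for B20 against metastatic IgG, where another probe set takes its place. All other values that turned were not called in the main setting or after. In metastatic IgG against healthy ECs, Slc2a3 was -0.01 with the mean of its probe sets, -0.02 without suffixed probe sets, -0.03 with centred arrays and -0.02 with a second normalization. With 1 array left out, Slc2a3 ranged from -0.23 to 0.26, Pfkp from -0.04 to 0.04 and Epas1 from 0.00 to 0.16. In B20 against metastatic IgG, Hif1a was 0.01 with centred arrays and 0.00 with array weights, Bhlhe40 was -0.01 with array weights, and Epas1 was 0.01 and 0.03 with those settings. With 1 array left out the ranges were -0.14 to 0.01 for Ldha, -0.14 to 0.02 for Ankrd37, -0.19 to 0.03 for Ndrg1, -0.05 to 0.05 for Hif1a, -0.04 to 0.07 for Bhlhe40, -0.12 to 0.10 for Hilpda, -0.07 to 0.09 for Epas1 and -0.42 to 0.04 for Egln3. Where no reason is given, the cause was not tested.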
